A study of Mus musculus with 3 samples.

Results

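This account covers 41 protein-coding genes of the cell division cycle, of 55536 annotated genes in the tables. They comprise 19 genes of DNA replication and 22 genes of mitosis, taken by symbol from fixed lists and matched to gene identifiers through the transcript tables, and all 41 symbols were found in each of the 3 libraries. The RNA came from the chromatin fraction of C57BL/6J mouse bone-marrow-derived macrophages (BMDM), primary phagocytes grown out of marrow. All libraries belonged to 1 group, stimulated for 10 min with Lipid A at 100 ng/ml, the part of bacterial lipopolysaccharide that activates the receptor TLR4. Total RNA was sequenced after removal of ribosomal RNA. The labels number the libraries as biological replicates 1, 2 and 3 but list a single donor for all of them, and their spread may therefore be partly technical, and age and sex were not recorded. No unstimulated library and no other cell fraction is used here, so a level does not show a response to Lipid A or an enrichment on chromatin.

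The cell division cycle runs through a growth phase (G1), DNA synthesis (S), a second growth phase (G2) and mitosis (M). Replication genes are transcribed at the entry into S phase under E2F transcription factors, while most mitotic genes are transcribed in G2 and mitosis through a promoter element called CHR, often paired with CCAAT boxes bound by NF-Y. Macrophages grown from marrow proliferate under the growth factor M-CSF and are known to leave the cycle on strong TLR4 stimulation, over hours. Chromatin-bound RNA holds many nascent and partly spliced transcripts.

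The promoters below show these elements in members at the ends of the range. Pcna and Kif23 had the highest mean level of their lists, and Cdc6 and Ccnb2 the lowest. Uhrf1 and Cenpf had the highest ratio of replicate 2 to the other libraries, and Mcm6 the most E2F letters. Uhrf1, Cenpf and Mcm6 were chosen after their values were seen. Sequences are from RefSeq (GRCm38.p6), 250 bases before to 30 bases after the RefSeq start site, 5′ to 3′ on the gene's strand. Capitals mark the motifs searched on both strands: E2F as TTTCCCGC, TTTGGCGC, TTTCGCGC or TTTGCCGC, CHR as TTTGAA or TTCGAA, and CCAAT. Overlapping copies were counted separately, as at the junction of 2 E2F runs in Mcm6 and in the shared CCAAT and ATTGG of Uhrf1.
Pcna, chr2:132253151-132253430, minus strand: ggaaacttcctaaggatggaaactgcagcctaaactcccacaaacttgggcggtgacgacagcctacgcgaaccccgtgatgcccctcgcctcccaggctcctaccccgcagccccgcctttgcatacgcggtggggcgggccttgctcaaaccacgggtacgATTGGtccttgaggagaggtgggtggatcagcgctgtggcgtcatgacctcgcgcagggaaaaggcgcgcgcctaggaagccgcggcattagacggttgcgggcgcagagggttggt
Cdc6, chr11:98907901-98908180, plus strand: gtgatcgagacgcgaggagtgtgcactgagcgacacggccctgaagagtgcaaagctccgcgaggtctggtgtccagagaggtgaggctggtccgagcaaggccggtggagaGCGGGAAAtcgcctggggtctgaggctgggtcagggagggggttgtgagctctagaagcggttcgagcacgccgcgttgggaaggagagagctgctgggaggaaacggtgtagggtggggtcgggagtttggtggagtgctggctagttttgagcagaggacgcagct
Uhrf1, chr17:56303087-56303366, plus strand: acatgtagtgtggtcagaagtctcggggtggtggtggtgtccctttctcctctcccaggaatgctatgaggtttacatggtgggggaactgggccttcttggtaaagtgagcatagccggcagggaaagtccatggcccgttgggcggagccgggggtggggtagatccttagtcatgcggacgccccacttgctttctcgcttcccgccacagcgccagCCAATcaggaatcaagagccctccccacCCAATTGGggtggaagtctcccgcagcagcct
Mcm6, chr1:128359676-128359955, minus strand: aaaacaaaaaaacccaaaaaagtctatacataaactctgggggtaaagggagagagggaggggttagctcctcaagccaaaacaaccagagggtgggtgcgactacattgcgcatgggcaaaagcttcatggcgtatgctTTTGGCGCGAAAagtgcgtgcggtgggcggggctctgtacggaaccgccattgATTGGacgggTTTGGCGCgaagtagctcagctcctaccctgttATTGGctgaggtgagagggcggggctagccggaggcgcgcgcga
Kif23, chr9:61946770-61947049, minus strand: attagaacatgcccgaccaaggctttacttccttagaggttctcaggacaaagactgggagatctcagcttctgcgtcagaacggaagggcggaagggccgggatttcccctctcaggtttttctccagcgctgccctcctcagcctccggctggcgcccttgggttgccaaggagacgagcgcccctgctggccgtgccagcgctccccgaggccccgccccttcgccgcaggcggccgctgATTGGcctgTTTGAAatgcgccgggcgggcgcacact
Ccnb2, chr9:70421525-70421804, minus strand: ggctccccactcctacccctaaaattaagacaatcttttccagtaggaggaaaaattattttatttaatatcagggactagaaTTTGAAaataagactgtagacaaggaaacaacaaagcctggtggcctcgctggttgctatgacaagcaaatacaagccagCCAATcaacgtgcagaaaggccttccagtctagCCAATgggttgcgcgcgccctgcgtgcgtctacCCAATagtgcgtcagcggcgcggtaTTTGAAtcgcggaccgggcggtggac
Cenpf, chr1:189688057-189688336, minus strand: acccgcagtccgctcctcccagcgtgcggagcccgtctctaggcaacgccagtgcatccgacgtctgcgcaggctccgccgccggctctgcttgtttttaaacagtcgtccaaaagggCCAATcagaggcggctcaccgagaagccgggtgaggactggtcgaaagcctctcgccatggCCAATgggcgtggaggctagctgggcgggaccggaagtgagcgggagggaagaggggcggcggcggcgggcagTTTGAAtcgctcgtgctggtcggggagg

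Mcm6, which codes for a subunit of the replicative helicase, held 3 E2F motifs, whose first bases lay at -110, -106 and -47 from the start site (position 0), and Cdc6, a licensing factor gene, held 1 at -138. Kif23 and Cenpf each held a CHR at position 2, just past the start site, with a CCAAT box upstream at -7 in Kif23 and at -132 and -71 in Cenpf. Ccnb2, the cyclin B2 gene, held CHR letters at -167 and 4 and CCAAT at -87, -54 and -21. The first start site of Uhrf1, printed above, held no E2F letters, while its second start site held 1 copy.

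Over windows of 250 bases before to 50 after the start site, 34 of the 41 members had an entry in the promoter table. E2F letters lay in 8 of 16 replication members (50%) and in 1 of 18 mitotic members (5.56%, Cdk1), against 3.29% of 17491 protein-coding genes. CHR letters lay in 14 of 18 mitotic members (77.8%) and 3 of 16 replication members (18.8%, Mcm2, Mcm7 and Cdc45), against 20.2% of protein-coding genes. CCAAT was held by 12 of 16 replication members (75%) and 15 of 18 mitotic members (83.3%), against 42.3%. CHR and CCAAT occurred together in 72.2% of mitotic and 18.8% of replication members, against 9.24% of protein-coding genes. The 2 lists thus differed in the letters of their promoters as a description. A match is not a binding site, and no factor was measured. Aurkb, Ccne2, Tpx2, Kif20a, Mcm4, Ccna2 and Gins2 were not in the table.

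Estimated counts on annotated genes totalled 15698066, 16005795 and 14386725 in replicates 1, 2 and 3, made from 1 µg, 250 ng and 500 ng of RNA. Amount and replicate cannot be told apart. The macrophage identity of the cells was checked by its markers, 10 of 10 of which reached a TPM of 1 or more in every library, with Ctsb, Lyz2 and Csf1r highest. TPM is the authors' transcript abundance per length, relative to all RNAs listed. Replicate 2 stood apart from the others for the members, and results are given with and without it. In bulk RNA, fewer cells in cycle and less RNA per cell cannot be told apart.

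Replication genes were present at low to moderate levels. In every library, 16 of 19 members had a TPM of at least 1, against 45.9% of all 22028 protein-coding genes. The median member had a TPM of 3.64, 5.78 and 2.39 in replicates 1, 2 and 3 (3.94 ± 1.71, SD, n = 3). Replicate 2 was highest and replicate 3 lowest. The median over all protein-coding genes with a mean of 10 or more counts was 10.8, 8.99 and 7.47 (9.08 ± 1.66, SD, n = 3), so TPM was lowest in replicate 3 over genes in general, and the typical replication gene lay below the typical expressed gene.

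The MCM genes code for the 6 subunits of the helicase that opens DNA at origins. Mcm7 had the highest level of them, with a TPM of 11.7, 11.2 and 7.28 in replicates 1, 2 and 3. Mcm6 had a TPM of 6.67, 6.73 and 4.97, and Mcm2 had 6.45, 6.31 and 5.08. In these 3 genes replicates 1 and 2 were close and replicate 3 was lowest. Mcm3 had a TPM of 4.72, 5.78 and 3.88, and Mcm5 had 3.65, 6.83 and 2.08, a wider spread with replicate 2 on top. Mcm4 was lowest of the complex with 1.54, 1.89 and 0.99, just under the detection limit in replicate 3. The subunits, which act in a complex of equal parts, thus ranged in mean level from 1.47 to 10.0 TPM.

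Genes for loading and firing of the helicase were uneven. Cdt1, which loads MCM onto origins, had a TPM of 8.90, 6.28 and 4.43 and was the only replication member with its highest scaled value in replicate 1. Cdc6, its partner in loading, was the lowest replication member with 0.59, 1.13 and 0.66, above 1 in replicate 2 only. Cdc45 and Gins2 code for parts of the active helicase. Cdc45 had a TPM of 1.6, 2.89 and 1.26, and Gins2 had 3.11, 4.08 and 2.76, both highest in replicate 2.

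Among genes of DNA synthesis, Pcna, the sliding clamp of the polymerases (ENSMUSG00000027342.14, mm10 chromosome 2, 132249162 to 132253314, minus strand), led the list. Its TPM was 26.2, 32.7 and 19.6 in replicates 1, 2 and 3 (26.2 ± 6.55, SD, n = 3), and no other replication member reached this range in any library. Pola1, the catalytic subunit of the polymerase that starts DNA strands, had a TPM of 9.54, 13.6 and 9.53, and its primase partner Prim1 had 3.64, 4.97 and 2.31. Of the genes for nucleotide supply, Rrm1, the large subunit of ribonucleotide reductase, had a TPM of 7.01, 11.8 and 7.26. Its small subunit Rrm2, the partner whose protein rises in S phase, had 1.63, 3.47 and 1.39. Tyms, thymidylate synthase, had 3.16, 5.12 and 2.06. In each of these 5 genes replicate 2 was highest.

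The cyclin E genes, which code for the activators of Cdk2 at S phase entry, differed in level. Ccne2 had a TPM of 2.87, 4.72 and 2.37, and Ccne1 had 1.27, 1.10 and 0.67. Ccne1 rested on 19, 25 and 6 counts, with an exact Poisson 95% interval of 2.20 to 13.1 counts in replicate 3, so its order between libraries is imprecise. Uhrf1, which guides maintenance DNA methylation behind the fork, had a TPM of 3.55, 7.48 and 2.39. Its replicate 2 value was more than 2-fold each of the others.

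Mitotic genes had a lower median level and were more uneven between libraries. In every library, 12 of 22 members had a TPM of at least 1, against 45.9% of protein-coding genes, and those that missed it were Ccnb1, Ccnb2, Birc5, Aurka, Plk1, Cenpf, Kif20a, Tpx2, Cdc20 and Nusap1. Each of these 10 genes had a TPM above 1 in replicate 2 and below 1 in replicate 3, so 18 members were detected without replicate 3. All 22 had a mean of 10 or more counts. The median member had a TPM of 2.17, 5.05 and 1.30 in replicates 1, 2 and 3 (2.84 ± 1.96, SD, n = 3). Without replicate 2 the mean of the median log2(TPM + 1) was 1.43, and with it 1.82.

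**Figure D1:**
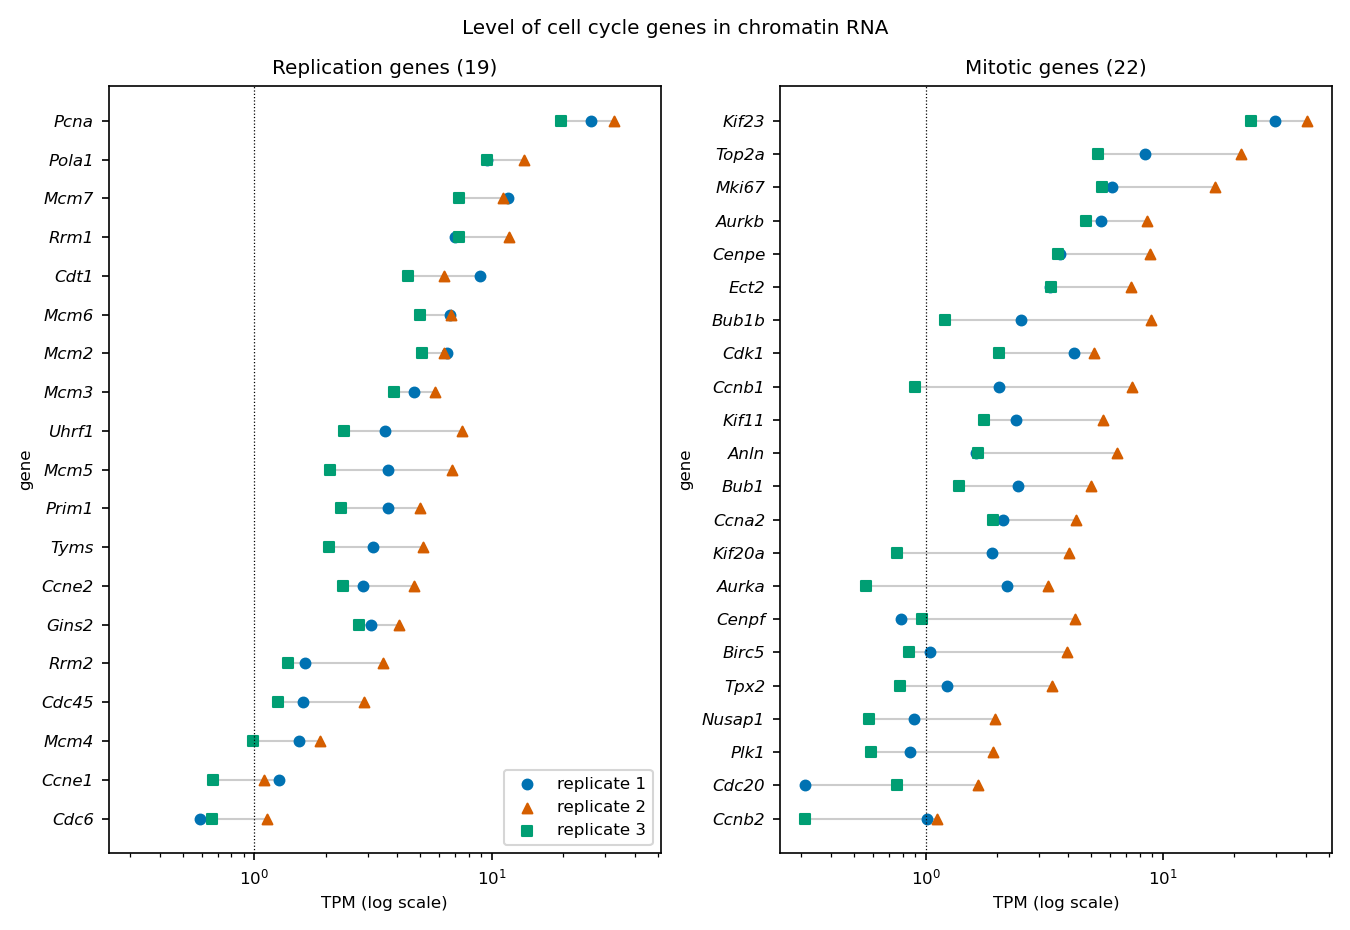
Level of each member in TPM (log scale) in replicates 1 (circles), 2 (triangles) and 3 (squares), for 19 replication genes (left) and 22 mitotic genes (right), sorted by mean. Dotted lines mark a TPM of 1. Triangles lie to the right in every mitotic gene, and Pcna and Kif23 lead their lists with means of 26.2 and 31.2.

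Genes that mark dividing chromosomes were among the highest mitotic members. Mki67, which codes for the surface protein Ki-67 of mitotic chromosomes, had a TPM of 6.13, 16.5 and 5.56 in replicates 1, 2 and 3. Top2a, the topoisomerase that untangles sister chromatids, had 8.43, 21.4 and 5.33. In both genes replicate 2 exceeded the other libraries more than 2-fold, while in TPM replicate 1 was above replicate 3, more so in Top2a. This order held in TPM only. In counts scaled between libraries, given below, replicate 3 was above replicate 1, by 0.33 in Mki67 and 0.17 in Top2a on the log2 scale.

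Of the mitotic cyclins and their kinase, Cdk1 had a TPM of 4.22, 5.12 and 2.04 and Ccna2, cyclin A2, had 2.12, 4.31 and 1.92. Ccnb1, cyclin B1, had 2.03, 7.40 and 0.90, a wide range with replicate 2 on top. Ccnb2 was the lowest mitotic member with 1.01, 1.12 and 0.31, on 19, 26 and 7 counts. The transcribed pseudogene Ccnb2-ps had 25, 51 and 27 counts, so reads of the 2 loci may be split. The pseudogenes of Pcna, Tyms and Ccnb1 had at most 2.56 counts in a library.

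The Aurora kinases and Plk1 drive spindle assembly and chromosome segregation. Aurkb had a TPM of 5.46, 8.58 and 4.72, and Aurka had 2.21, 3.28 and 0.56. Birc5, survivin, the partner of Aurora B at the centromere, had 1.04, 3.94 and 0.85. Tpx2, the activator of Aurora A, had 1.23, 3.40 and 0.78, and Plk1 had 0.86, 1.92 and 0.59. All 5 had their highest TPM in replicate 2 and their lowest in replicate 3, where the median of all protein-coding genes was lowest too.

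The spindle checkpoint holds anaphase until chromosomes are attached. Its kinase gene Bub1 had a TPM of 2.45, 4.97 and 1.38, and Bub1b, which codes for BubR1, had 2.52, 8.94 and 1.21. Cdc20, the activator of the anaphase-promoting complex that the checkpoint restrains, had 0.31, 1.67 and 0.76, on 7, 37 and 12 counts. Cdc20 therefore stands on few reads, with an exact Poisson 95% interval of 26.1 to 51.0 counts in replicate 2 and of 6.2 to 21 in replicate 3. At the kinetochore, the motor gene Cenpe had 3.67, 8.78 and 3.61, and Cenpf had 0.79, 4.26 and 0.97. Cenpf thus reached a TPM of 1 in replicate 2 only.

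The spindle motor genes were led by Kif23, the kinesin of the central spindle (ENSMUSG00000032254.10, mm10 chromosome 9, 61915905 to 61946774, minus strand). Its TPM was 29.7, 40.4 and 23.5 in replicates 1, 2 and 3 (31.2 ± 8.54, SD, n = 3), the highest of all 41 members and the only mitotic member above Top2a. Kif11, the motor that separates spindle poles, had 2.40, 5.59 and 1.77. Kif20a, a central spindle motor, had 1.90, 4.03 and 0.76, and Nusap1, a microtubule binder, had 0.89, 1.97 and 0.58. Of the cytokinesis genes, Ect2, which activates RhoA at the division plane, had a TPM of 3.34, 7.36 and 3.36, and Anln, the ring scaffold anillin, had 1.63, 6.42 and 1.67. Replicates 1 and 3 nearly coincided in both, and replicate 2 lay above them.

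The median of the replication list exceeded that of the mitotic list in each library, but its sum did not. Summed TPM in replicate 2 was 138 over the 19 replication and 171 over the 22 mitotic members. In replicates 1 and 3 the replication sum was higher, at 108 and 81.0 against 84.3 and 63.2. The difference of the medians in log2(TPM + 1), replication minus mitotic, was 0.55, 0.17 and 0.56 in replicates 1, 2 and 3 (0.43 ± 0.23, SD, n = 3), and 0.56 without replicate 2. The gap was smallest in replicate 2, where mitotic genes were highest. No test was run, since the members are not replicates of a condition.

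To compare libraries, estimated counts were expressed as CPM (counts per library size) scaled by edgeR's trimmed mean of M-values (scaled CPM). Replicate 2 had the highest scaled CPM in 18 of 19 replication members, all but Cdt1, and in 22 of 22 mitotic members, against 34.7% of the 15877 genes with a mean of 10 or more counts and 29.8% of the protein-coding genes among them. With TPM in place of scaled CPM, replication members with their highest value in replicate 2 numbered 15, since Mcm2, Mcm7 and Ccne1 were then also highest in replicate 1, while all 22 mitotic members stayed so. Summed over the mitotic members, scaled CPM was 189, 515 and 221 in replicates 1, 2 and 3. Over the replication members it was 192, 275 and 191. Replicates 1 and 3 were near each other in both sums, and replicate 2 stood above them.

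The size of the excess differed between the lists. The log2 ratio of replicate 2 to the mean of replicates 1 and 3, with a pseudocount of 0.1 CPM, had a median of 0.58 in replication members (1.5-fold) and 1.31 in mitotic members (2.48-fold), against -0.0045 over all genes tested. It ranged from 0.06 for Cdt1 to 1.66 for Uhrf1 in replication members, and from 0.42 for Kif23 to 2.25 for Cenpf in mitotic members. Every member thus lay above 0 in scaled CPM, although in TPM Cdt1 had less in replicate 2, 6.28, than in replicate 1, 8.90. This excess was noticed in the data and is given as a description.

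At least 2-fold above both other libraries in replicate 2 were 4 replication and 15 mitotic members, against 1.39% of genes and 1.27% of protein-coding genes. The replication genes were Mcm5, Rrm2, Cdc6 and Uhrf1, but this count was 1 in the second transcript table and 2 with TPM. The mitotic genes below this limit were Ccna2, Ccnb2, Aurka, Aurkb, Plk1, Bub1b and Kif23. No member was 2-fold above both others in replicate 1, against 1.05% of genes, or in replicate 3, against 0.391% of genes.

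Cenpf had the highest ratio, with 4.95, 33.5 and 8.96 scaled CPM in replicates 1, 2 and 3, a log2 ratio of 2.25. Ccnb1 followed with 1.93, 6.57 and 1.18 scaled CPM (log2 ratio 2.01), and Anln with 6.36, 25.7 and 7.57 (log2 ratio 1.87). In these genes replicate 2 stood far above each other library. Mki67, the mitotic member with the most reads, had 55, 170 and 69 scaled CPM (log2 ratio 1.46), and Top2a had 19.8, 58.0 and 22.3 (log2 ratio 1.46). Mki67 rested on 857, 2902 and 939 counts, whose exact Poisson 95% intervals, 801 to 916, 2797 to 3010 and 880 to 1001, keep replicate 2 apart from the others in counting error. At the other end, Pcna had 20.7, 28.5 and 20.1 scaled CPM (log2 ratio 0.48), Mcm2 14.3, 15.5 and 13.4 (log2 ratio 0.16), and Mcm3 9.89, 10.0 and 8.89 (log2 ratio 0.09). Pcna was still higher in replicate 2, while the values of Mcm2 and Mcm3 hardly parted.

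By role, replicate 2 had a median log2 ratio of 0.30 for the 6 MCM genes and 0.48 for the 3 genes of polymerase, primase and clamp. It was 0.57 for the origin licensing genes Cdc6 and Cdt1, 0.63 for Cdc45 and Gins2, 0.67 for the cyclin E genes, 1.06 for the 3 genes of nucleotide supply and 1.66 for Uhrf1. In the mitotic list it was 1.05 for the cyclins and Cdk1, 1.05 for the mitotic kinases and partners, 1.14 for the spindle checkpoint, 1.35 for spindle and midzone, 1.46 for Mki67 and Top2a, 1.54 for cytokinesis and 1.79 for the kinetochore. The role medians of the 2 lists thus overlapped. Those of nucleotide supply and Uhrf1 lay in the range of the mitotic roles, and those of the helicase and polymerase genes below it. Single genes departed from the median of their role, such as Mcm5 at 1.17 among the MCM genes. Cdc6 had 1.08 and Cdt1 0.06, so the licensing median describes neither. Replication members with E2F letters ranged from 0.06 to 1.66, and those without from 0.16 to 1.09. Mitotic members with CHR letters ranged from 0.42 to 2.25, and those without from 1.32 to 2.01.

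**Figure D2:**
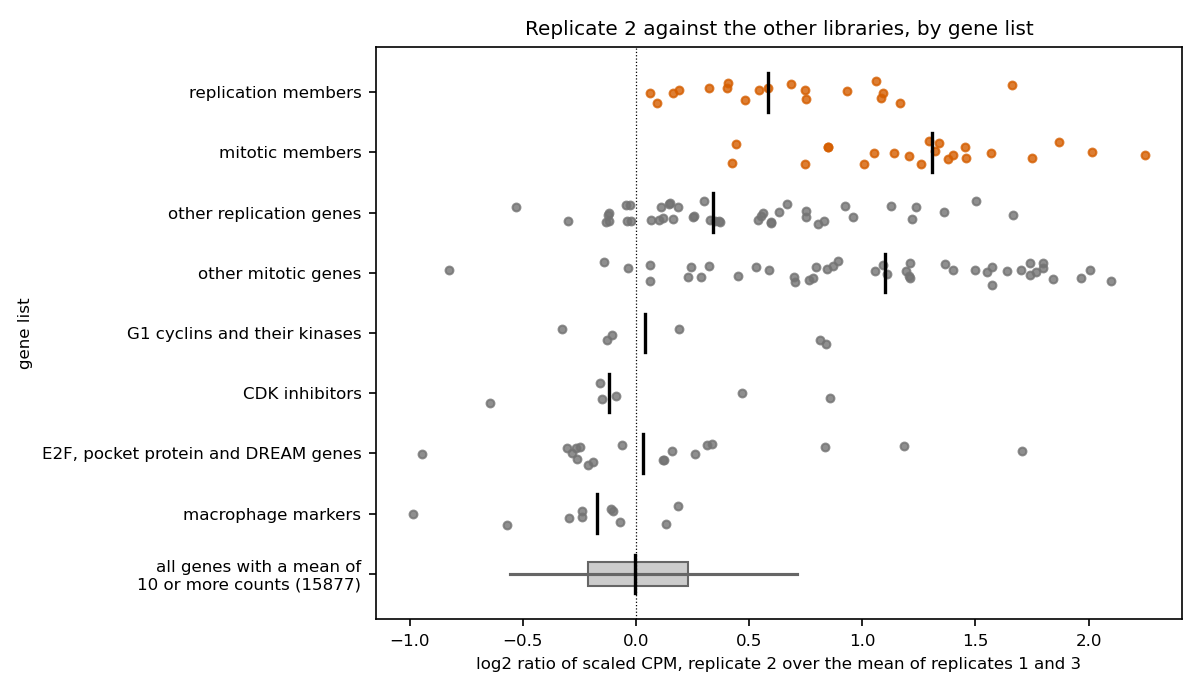
Log2 ratio of scaled CPM in replicate 2 over the mean of replicates 1 and 3 for each gene (dots) of the member lists, related lists and macrophage markers, with the list median (black bar). For all 15877 genes with a mean of 10 or more counts, the box spans the quartiles and the line the 5th to the 95th percentile. On this scale all member dots lie above 0, with medians of 0.58 and 1.31.

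As list medians, replicates 1 and 3 were close for the members. The median log2 ratio of each to the mean of the other libraries was -0.36 and -0.39 in replication members and -0.86 and -0.80 in mitotic members. The median log2 ratio of replicate 3 over replicate 1 was -0.13 for replication and 0.04 for mitotic members. The 2 libraries differed in single genes. Cenpf, Cdc20 and Cenpe were 0.85, 0.84 and 0.70 higher in replicate 3 on the log2 scale. Ccne1, Ccnb2 and Aurka were 1.29, 1.10 and 1.03 lower there. Of these, Ccne1 had 19 and 6 counts in replicates 1 and 3, Ccnb2 19 and 7, and Aurka 32 and 13. Cdc20 had 7 and 12, so the differences of these genes are imprecise.

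The spread between libraries, measured as edgeR's moderated biological coefficient of variation, had a median of 0.212 in replication members and 0.320 in mitotic members, against 0.178 over all genes tested. Cenpf and Ccnb1 had the highest values, 0.481 and 0.461, and Mcm2 and Kif23 the lowest, 0.155 and 0.162. Without replicate 2 the medians were 0.182 and 0.208, against 0.174 over all genes tested.

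Related genes, taken from lists of the same pathways, gave the following values. Of all genes tested, 34.7% were highest and 1.39% at least 2-fold highest in replicate 2. Of 44 other replication genes, 31 were highest and 6 at least 2-fold highest in replicate 2, with a median log2 ratio of 0.34. The highest by mean TPM were Rfc2, a clamp loader subunit gene, with a log2 ratio of -0.04, and the origin recognition genes Orc3 and Orc4 with -0.12 and 0.18. Among the lowest, Exo1 had 1.22 and Fen1 had 0.37. Of 47 other mitotic genes, 44 had a mean of 10 or more counts, and 40 of these were highest and 23 at least 2-fold highest in replicate 2, with a median of 1.10. The highest by mean TPM, the centromeric histone gene Cenpa, Incenp and the condensin gene Smc4, had log2 ratios of -0.14, 0.06 and 0.06, so they did not share the excess of the list. The lowest, Cks2, Pbk and Ube2c, had too few counts to enter the comparison.

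Genes of the G1 cyclins and their kinases, CDK inhibitors, and E2F, pocket proteins and DREAM did not show the excess in their list medians. The 6 G1 cyclin and kinase genes had a median log2 ratio of 0.04, and none was 2-fold highest in replicate 2. Cdk6, Cdk4 and Cdk2 had 0.19, -0.33 and -0.10, while the cyclin D genes Ccnd1, Ccnd3 and Ccnd2 had 0.84, -0.13 and 0.81. The CDK inhibitor genes, 6 of 7 of which had a mean of 10 or more counts, had a median of -0.12, with Cdkn1a at -0.15, Cdkn1b at -0.09, Cdkn1c at -0.65, Cdkn2b at 0.47 and Cdkn2d at -0.16. Cdkn2c, named after its value was seen, had the highest of these ratios, 0.86. Cdkn2a was listed at 0 TPM in replicates 1 and 3. Of 18 E2F, pocket protein and DREAM genes, which regulate the members' promoters, 8 were highest in replicate 2, against 34.7% of all genes tested. The median of this list was 0.03. Rb1, Rbl2 and Rbbp4 had -0.28, -0.25 and -0.06, while the lowest by TPM, E2f8, E2f7 and E2f2, had 1.18, 1.71 and 0.83. E2f7 was the only gene of this list 2-fold above both other libraries in replicate 2, against 1.39% of all genes tested. Within this list, E2f7, E2f8 and E2f2 thus lay above the pocket protein genes Rb1, Rbl2 and, at 0.13, Rbl1.

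**Figure D3:**
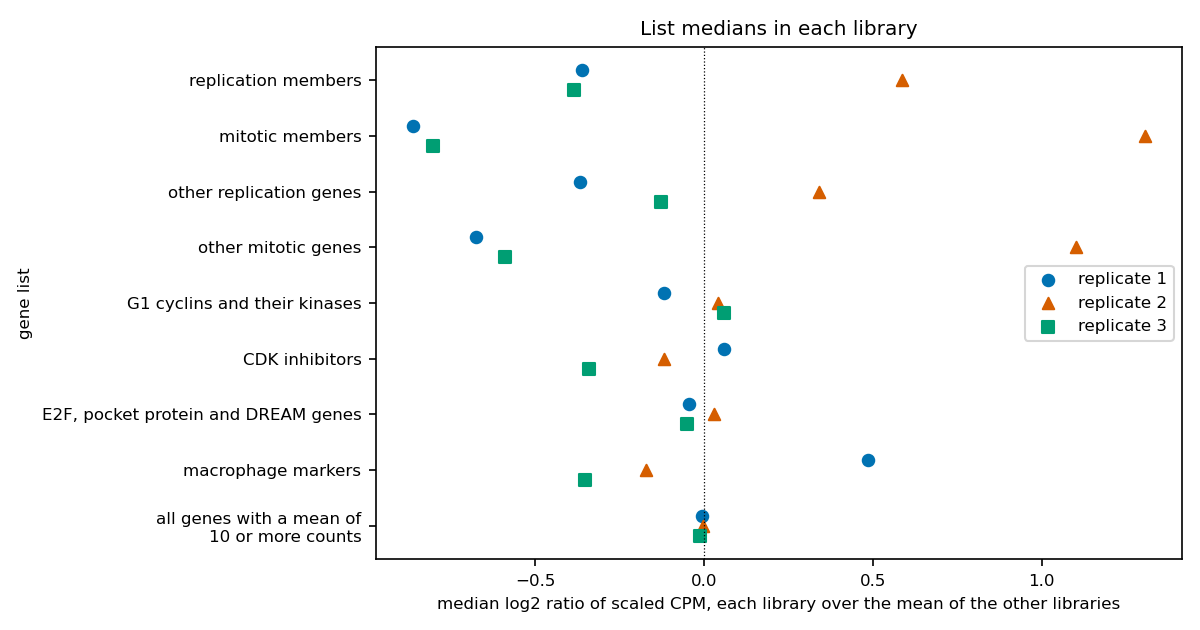
Median log2 ratio of scaled CPM of each library over the mean of the other libraries, by gene list, for replicates 1 (circles), 2 (triangles) and 3 (squares). Replicate 2 lies at 0.58 and 1.31 for the member lists, and all libraries lie near 0 for all genes tested. Macrophage markers are highest in replicate 1, at 0.48.

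Of the 221 genes at least 2-fold above both other libraries in replicate 2, 48 belonged to the 4 replication and mitotic lists, members included. They were 21.7% of the called genes and 37.2% of the 129 listed genes tested, against 1.39% of all 15877 genes. The 48 include 19 members, whose excess had already been noticed in these data. Among genes with a mean of 50 or more counts, a limit chosen after seeing the data, it was 37 of 79 called genes, or 46.8% of the called and 35.2% of the 105 listed genes, against 0.672% of all 11753 genes at that limit.

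Markers of other cells in marrow cultures were read beside this result. Of 10 macrophage markers none was highest in replicate 2, against 34.7% of all genes tested, and 9 were highest in replicate 1. In replicate 2 the number lowest was 4, and in replicate 3 it was 6. The summed scaled CPM of these markers was 3901, 2899 and 2939 in replicates 1, 2 and 3. No neutrophil and promyelocyte marker of 10 was detected in every library, with summed counts of 19, 27 and 3, and Elane and Ly6g were at 0. No fibroblast and stroma marker of 10 was detected, with summed counts of 2, 66 and 73, low in replicate 1 and alike in replicates 2 and 3. Of progenitor markers 2 of 10 were detected, Cd48 and Meis1, with a summed scaled CPM over the list of 85.1, 65.9 and 57.9, and Mecom was at 0. Of erythroid markers 3 of 10 were detected (Tfrc, Alas2 and Epor), with sums of 318, 379 and 374, while Hba-a1 and Hbb-bt were at 0. Of T cell markers 2 of 10 were detected, Cd28 and Il7r, with sums of 226, 266 and 244, while Cd3g and Lck were at 0. Of B cell markers 1 of 10, Cd22, was detected, with sums of 6.94, 4.40 and 3.45, and Pax5 and Rag1 were at 0. The sums of the progenitor and erythroid lists rest mainly on Cd48 and Tfrc, and without these genes they were 17.3, 17.4 and 18.1, and 11.7, 11.9 and 9.40 scaled CPM in replicates 1, 2 and 3. The progenitor marker Kit was highest in replicate 2, with 2.25, 2.76 and 1.98 scaled CPM on 35, 47 and 27 counts. Myb had 4, 10 and 5 counts. The replicate 2 log2 ratio was 0.37 for Kit, but -0.15 for Cd48 and -0.12 for Meis1. Of these 3 markers, the only progenitor markers with a mean of 10 or more counts, 1 was highest in each library. Outside the lists, 3 mesenchymal genes named after their values were seen were at least 2-fold above both other libraries in replicate 2. They were Omd (16, 53 and 15 counts), Aspn (6, 20 and 5) and Acta2 (7, 29 and 11). Of all genes tested, 1.39% reached this limit. The 2 listed stroma markers with a mean of 10 or more counts did not. Col1a1 had 0, 19 and 30 counts, and Col1a2 had 0, 19 and 15. The part of other cells, of the amount of starting RNA and of the culture in the excess was not tested.

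Because chromatin RNA holds unfinished transcripts, the annotated transcript classes of each member were compared. The retained intron share is the percent of a gene's TPM in transcripts annotated as retained_intron, in genes with a mean TPM of 1 or more. Its median was 54.1%, 51.5% and 51.7% in replicates 1, 2 and 3 over 16 replication members (52.4% ± 1.42, SD, n = 3). Over 15 mitotic members it was 37.1%, 43.7% and 23.2% (34.7% ± 10.5, SD, n = 3). The value over all genes tested with such a transcript was 46.5% ± 2.33 (SD, n = 3), between the lists. The mitotic value varied more between libraries, with replicate 3 lowest. At a TPM of 5 or more 3 mitotic members were left, Kif23, Aurkb and Cenpe, with a median of 62.1%. Over the 7 replication members left it was 57.9%, so the order of the lists reversed at that limit.

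Retained intron transcripts were the leading transcript in 8 of 19 replication and 7 of 22 mitotic members, against 26% of protein-coding genes with a mean of 10 or more counts. The share was 91.1% ± 7.27 for Cdt1, 75.9% ± 17.5 for Gins2, 63.9% ± 3.99 for Pcna and 6.38% ± 2.21 for Pola1 in the replication list (SD, n = 3 each). In the mitotic list it was 83.1% ± 5.64 for Ccnb1, 78.5% ± 8.68 for Ect2, 68.3% ± 2.59 for Kif23 and 14.6% ± 2.79 for Cenpf (SD, n = 3 each). Pcna and Kif23, the members of highest level, thus had most of their TPM outside protein-coding transcripts. Mcm4, Ccne2, Mki67, Top2a, Ccnb2, Birc5, Plk1 and Nusap1 have no annotated transcript of this class, so their share is not defined rather than 0.

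The excess in replicate 2 was present in both classes. Its median log2 ratio was 0.50 in protein-coding transcripts of 18 replication members and 0.64 in retained intron transcripts of 12. It was 1.34 in protein-coding transcripts of 22 mitotic members and 1.21 in retained intron transcripts of 9, restricted to members with a mean of 10 or more counts in that class. All 22 and all 9 were highest in replicate 2, as were 14 of the 18 and 10 of the 12 in the replication list.

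Levels depended on how the reads were assigned. The second transcript table, summed by gene, gave a median of 1.36 times the TPM of the gene table in replication members and 1.49 times in mitotic members, against 1.29 times in protein-coding genes. Ccne1 had a TPM of 4.48 ± 1.31 there, against 1.01 ± 0.309 in the gene table, a ratio of 4.42 (SD, n = 3 each). Birc5 had 7.30 ± 1.44 and 1.94 ± 1.73, and Cdk1 had 13.4 ± 4.48 and 3.79 ± 1.58 (SD, n = 3 each). Rrm1, Tyms, Ccne2, Kif20a, Tpx2 and Nusap1 also had at least 2 times the TPM in the second table, and Mki67 had 0.975 times. The order of levels among such members is therefore uncertain.

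Some members share exon bases with a gene on the other strand, and no source used here says whether counting used strand, which leaves their values uncertain. Gins2 shares 2758 bases with Gse1, Kif20a 1271 bases with Cdc23, Ccne2 609 bases with Ints8 and Ccna2 510 bases with Exosc9. Mcm7 shares 321 bases with Ap4m1 and 64 with Cops6, and Cdc45 shares 209 bases with Ufd1. Nusap1 shares 172 bases with Oip5, Plk1 156 with Gm44985 and Cdc20 53 with Elovl1. Kif20a had 30.8, 117 and 41.8 counts in replicates 1, 2 and 3, against 615, 724 and 553 counts for Cdc23. The microRNA genes Mir25 and Mir93, which lie inside Mcm7, had 0 counts in all 3 libraries of this RNA preparation.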

How the data were processed

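Total RNA-seq of chromatin-fraction RNA was available for 3 libraries of 1 group. Per the deposited readme files, the authors used mm10 and GENCODE M21. The gene table and first transcript table hold the deposited estimated counts and TPM, made by the authors from transcriptome alignments, and the second transcript table was made by them straight from the reads in the same units. The sources used here give no programs, versions or strand. Rows naming no annotated gene were left out and held 1.16%, 0.459% and 0.351% of counts in replicates 1, 2 and 3.

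Levels are the deposited TPM. Counts were rounded and scaled with the trimmed mean of M-values (TMM) in edgeR 4.0.16 (R 4.3.3), for 15877 genes with a mean of 10 or more counts. DESeq2 1.42.0 size factors were an alternative, as were the second table, other pseudocounts, filters and scalings, and leaving out each library. A count of 0 allows 3 counts, or 0.191, 0.187 and 0.209 CPM, and intervals cover counting error only. The steps were tested on simulated data. No p-value is given, since there was 1 group and the members and lists were chosen with earlier results of these data known. All 41 members are given, and of each pathway list the 3 highest and 3 lowest by mean TPM are named, except 1 gene that is not reported here. Promoters printed are the members of highest and lowest mean TPM of each list, and 3 chosen after their values were seen. The ratios of replicate 2 and their alternatives were also chosen after seeing the data. Motifs and lengths were read from RefSeq sequences of GRCm38.p6 by Python 3.11.15.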

Additional observations from a re-analysis of the deposited data

How the results depend on the processing

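No paired analysis was possible because all libraries belonged to 1 group. No result taken alone, judged as 1 value over the libraries used, changed direction under the alternatives run. The order within each library was not judged in this way. With list means in place of medians, replication minus mitotic was 0.37 ± 0.33 (SD, n = 3), a spread close to the difference itself. The order of the 2 lists in retained intron share did reverse at a TPM of 5 or more. The replication level in median log2(TPM + 1), 2.25, was 2.77 in the second table, 3.93 with TPM rescaled over protein-coding genes and 3.29 as CPM without length normalization. The mitotic level, 1.82, was 2.47 in the second table, 3.38 rescaled and 2.68 as CPM. Mitotic members detected, 12, were 19 in the second table, 21 rescaled, 20 at a TPM of 0.5 and 22 by a mean of 10 counts. The retained intron share of replication members, 52.4%, was 47.3% in the second table and 57.9% at a TPM of 5 or more, and that of mitotic members, 34.7%, was 62.1% at that limit, over 3 genes. Leaving out each library in turn, the median biological coefficient of variation ranged from 0.175 to 0.240 in replication members and from 0.208 to 0.281 in mitotic members. Replication members at least 2-fold highest in replicate 2, 4, were 1 in the second table and 2 with TPM, and ranged from 5 to 6 when replicate 3 or 1 was left out. Mitotic ones ranged from 11 to 19, and the median log2 ratio of replicate 2 from 1.03 to 1.49. That ratio ranged from 0.47 to 0.73 in replication members. CPM without scaling factors moved the median of all genes by 0.13, and TPM rescaled over protein-coding genes by 0.11. The causes were not tested. Members with under 50 counts, such as Cdc20, Ccnb2 and Ccne1, are limited by depth.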

Other observations

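Genes outside the lists also had their highest value in replicate 2, named here after their values were seen. The kinetochore scaffold gene Knl1 had 11.7, 47.3 and 13.9 scaled CPM in replicates 1, 2 and 3, a log2 ratio of 1.88 for replicate 2, and the spindle gene Knstrn had 3.34, 11.4 and 3.16 (log2 ratio 1.78). Of DNA repair genes, Brca1 had 9.63, 27.4 and 8.74 scaled CPM (log2 ratio 1.57), and Neil3 had 3.79, 16.9 and 4.48 (log2 ratio 2.00). The intermediate filament gene Nes had 0.963, 11.3 and 2.65 (log2 ratio 2.58), and the protocadherin gene Pcdh7 had 3.47, 16.3 and 4.48 (log2 ratio 2.01). In all 6 genes replicate 2 was at least 2-fold above each other library.

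Replication-dependent histone genes, whose transcripts are made in S phase and mostly lack a poly(A) tail, followed another pattern. This list was added after seeing the data. Of 70 genes, 46 averaged at least 10 counts. Of those, 25 were highest in replicate 2 and 7 were 2-fold highest there, against 34.7% and 1.39% of all genes tested. The summed scaled CPM was 381, 358 and 221 in replicates 1, 2 and 3, and the median log2 ratio was 0.18, 0.39 and -0.97. Replicate 3 was lowest in 39 of these 46 histone genes and in 13 of 19 replication members, against 29% of all genes with a mean of 10 or more counts. Near-identical histone copies may share reads, so single genes of this list are not named.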
